A study of Mus musculus with 2 samples.

Results

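The Chd genes encode the chromodomain helicase DNA-binding remodellers, and all 9 mouse members (Chd1 to Chd9) were looked up by gene symbol among the 43346 Ensembl genes of the deposited gene tables. Each of the 9 matched 1 gene entry and was at 1 TPM or more in both libraries. TPM is a level already divided by transcript length and scaled to 1 fixed total per library, so it can be compared between genes. The RNA came from the hindbrain, the embryonic region that forms the medulla, pons and cerebellum, of B6NCrl mouse embryos of both sexes at embryonic day 12.5. The study holds 1 group of 2 biological replicates, replicate 1 from a pool of 120 embryos and replicate 2 from a pool of 88 embryos. No genotype or treatment was compared, so the data give levels, the transcripts behind them and the spread between the pools. Each library was made from 10 ng of the long size fraction of RNA with external spike-in RNAs added, and values below are mean ± SD over the 2 libraries unless given per library.

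Chd proteins use the energy of ATP to slide, space or evict nucleosomes. Their paired chromodomains sit in front of a SNF2-type ATPase motor, and the family is divided into subfamily I (Chd1, Chd2), subfamily II (Chd3, Chd4, Chd5) and subfamily III (Chd6, Chd7, Chd8, Chd9). Subfamily I acts during transcription, subfamily II supplies the ATPase of the NuRD deacetylase complex, and in subfamily III human CHD7 is the gene of CHARGE syndrome and CHD8 a gene linked to autism. In bulk tissue, fewer cells of a type and less RNA per cell cannot be told apart.

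The libraries held 31633169 and 29766460 expected counts (estimated fragment numbers), with 3.41% and 4.36% in spike-ins. The 9 Chd genes took 0.120% and 0.117% of the counts of Ensembl genes. Of 7 hindbrain markers (Hox, Meis and Irx genes) all 7 were detected, meaning at 1 TPM or more in both libraries, with a median of 56.6 and 67.3 TPM in the pools. Of 6 forebrain markers 3 were detected (Lhx2 at 25.2, Neurod6 at 16.4 and Emx2 at 3.06 TPM, named after their values were seen), and the median over all 6 was 2.06 TPM.

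Among what the members share at the sequence level is the motor. Its DEAH box, named after the residues aspartate, glutamate, alanine and histidine, belongs to the site that binds and splits ATP. A search for the 4 codons of this box, in frame and on the coding strand, found exactly 1 in the leading full-length coding transcript of each of the 9 genes. Over all protein-coding genes, 75 of 21572 (0.348%) held such a box. The windows below show the box and the bases around it in each member, 48 bases each. They are read 5′ to 3′ on the coding strand from the mm10 genome with GENCODE M21 gene models. Capitals mark the 12 bases of the box.
Chd1 (chr17:15738509-15738556, + strand, codon 612 of 1711): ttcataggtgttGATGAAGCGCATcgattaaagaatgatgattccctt
Chd2 (chr7:73490595-73490642, - strand, codon 617 of 1827): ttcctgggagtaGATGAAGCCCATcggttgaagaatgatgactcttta
Chd3 (chr11:69356938-69356985, - strand, codon 935 of 2055): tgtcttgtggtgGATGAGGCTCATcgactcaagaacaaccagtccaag
Chd4 (chr6:125108749-125108796, + strand, codon 853 of 1902): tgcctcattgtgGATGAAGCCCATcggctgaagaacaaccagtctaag
Chd5 (chr4:152370595-152370642, + strand, codon 849 of 1952): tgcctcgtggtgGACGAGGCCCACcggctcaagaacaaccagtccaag
Chd6 (chr2:161018056-161018103, - strand, codon 597 of 2711): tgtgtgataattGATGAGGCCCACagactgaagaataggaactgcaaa
Chd7 (chr4:8828331-8828378, + strand, codon 1095 of 2986): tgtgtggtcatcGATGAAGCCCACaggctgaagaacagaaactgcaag
Chd8 (chr14:52219627-52219674, - strand, codon 950 of 2582): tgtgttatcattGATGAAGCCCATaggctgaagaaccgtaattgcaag
Chd9 (chr8:90994559-90994606, + strand, codon 996 of 2869): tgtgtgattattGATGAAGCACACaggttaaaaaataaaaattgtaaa

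In these windows 19 of 48 positions were identical in all 9 genes. The closest pair was Chd3 with Chd5, at 42 identical positions, and the farthest was Chd1 with Chd7, at 24. The box also served to sort transcripts, since a transcript that does not contain its bases cannot encode the complete motor.

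At the level of whole genes, Chd4 was highest and Chd5 lowest, a 29.7-fold range. Chd4 reached 107 and 105 TPM in replicates 1 and 2, above 89.7% of the 15381 detected genes. Chd7 (84.1 and 77.4 TPM) and Chd3 (75.9 and 78.4 TPM) came next and changed places between the libraries, so their order is not resolved. Chd6 (34.0 and 38.7 TPM), Chd1 (33.4 and 36.1 TPM) and Chd8 (33.7 and 34.0 TPM) formed a middle group, below which came Chd2 (26.2 and 25.8 TPM). Chd9 (10.1 and 9.71 TPM) and Chd5 (3.84 and 3.30 TPM) were the only members below the median detected gene, which was at 17.9 and 18.2 TPM. The median Chd gene was at 33.7 and 36.1 TPM.

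Neighbours in this order were told apart where the log2 difference had 1 sign in both libraries and exceeded its SD. Chd4 lay above Chd7 by 0.39 ± 0.06 log2 units, Chd3 above Chd6 by 1.09 ± 0.10, and Chd8 above Chd2 by 0.38 ± 0.03. Chd2 lay above Chd9 by 1.39 ± 0.03 and Chd9 above Chd5 by 1.48 ± 0.11. Chd6 exceeded Chd1 by only 0.06 ± 0.05. The differences of Chd7 over Chd3 (0.06 ± 0.12) and of Chd1 over Chd8 (0.03 ± 0.07) were smaller than their SD. No p is given, since a permutation test over 2 libraries cannot go below p = 0.5.

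A gene's TPM is the sum over its annotated transcripts, and in this family those differ widely in length. A transcript is called full-length here if it is protein-coding and its coding sequence is at least 90% of the longest one of the gene. Counting only such transcripts, Chd4 kept 82.2 and 80.1 TPM and Chd3 32.4 and 35.3 TPM, whereas Chd7 was left with 15.4 and 14.7 TPM. Chd8, at 23.0 and 23.6 TPM, then lay above Chd7. The direction of that pair thus depends on the measure, with Chd7 over Chd8 at 1.25 ± 0.09 log2 units by whole-gene TPM and at -0.63 ± 0.07 by full-length TPM. Next came Chd6 at 11.5 and 11.4 TPM, Chd1 at 11.5 and 11.4 TPM, Chd2 at 10.7 and 10.1 TPM, and Chd9 at 10.2 and 9.71 TPM. The pair of Chd6 and Chd1 did not differ beyond its spread. Chd5 remained lowest at 0.81 and 1.14 TPM, and the range from Chd4 to Chd5 widened to 83.2-fold.

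**Figure D1:**
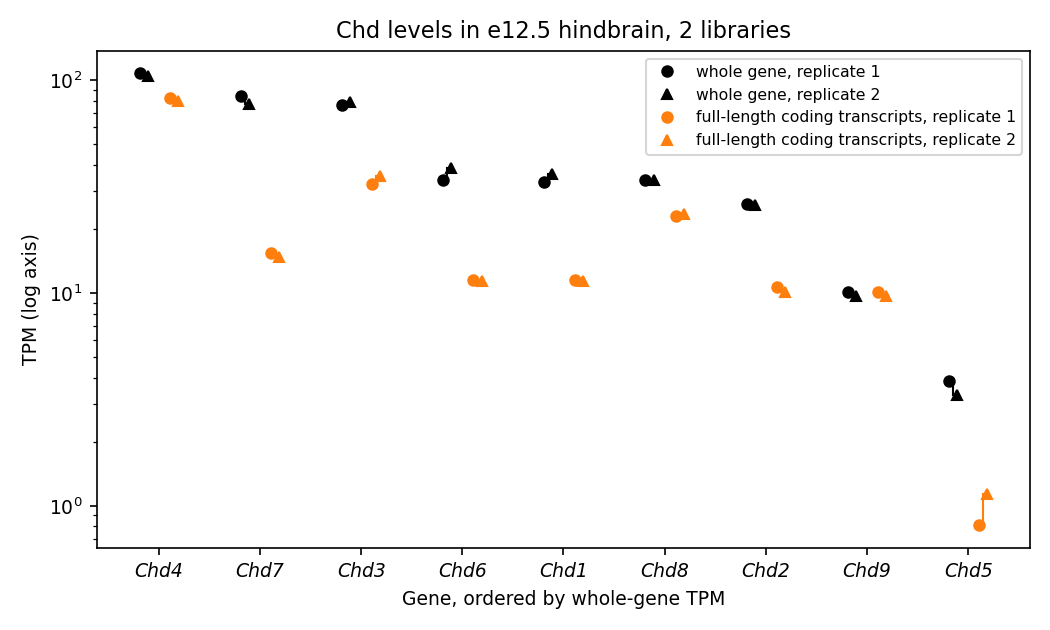
Levels of the 9 Chd genes in TPM on a log axis, ordered by whole-gene TPM. Black marks give the whole gene and orange marks the full-length coding transcripts only, with circles for replicate 1 and triangles for replicate 2. The largest gap between black and orange is at Chd7, which goes from 80.8 to 15.1 TPM, while both values coincide at Chd9.

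A measure that does not divide a gene's counts among its transcripts placed Chd7 between these readings, below Chd3 and above Chd8. All expected counts of a gene were divided by the deposited effective length of its leading full-length transcript and by the library's total. That transcript is the full-length one of highest mean share, so its choice still uses the assignment. On this scale of counts per kb, normalised to library size as in CPM, Chd4 was at 51.5 ± 1.23, Chd3 at 26.3 ± 0.736, Chd7 at 19.7 ± 1.19 and Chd8 at 15.6 ± 0.0530. Chd6 (10.6 ± 0.105), Chd1 (10.4 ± 0.00433), Chd2 (7.0 ± 0.301), Chd9 (6.14 ± 0.230) and Chd5 (0.940 ± 0.0674) followed. By all 3 measures Chd4 was the highest and Chd5 the lowest, and Chd2, Chd9 and Chd5 took the last places in that order. Chd7 moved from rank 2 to rank 4 or 3.

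The members differed widely in how much of their signal lay in full-length transcripts. The share of gene TPM was 18.7% for Chd7, 27.8% for Chd5, 31.6% for Chd6, 33.0% for Chd1, 39.9% for Chd2, 43.9% for Chd3, 68.7% for Chd8, 76.5% for Chd4 and 100% for Chd9. The median of 8164 protein-coding genes with several transcripts and at least 5 TPM was 78.2% in replicate 1 and 78.9% in replicate 2, so 8 of 9 members lay below it. Among these 8 is Chd5, which at 3.84 and 3.30 TPM did not itself reach 5 TPM. The 100% of Chd9 is set by its annotation, which holds full-length transcripts only. By share of expected counts the members ran from 47.2% (Chd7) and 63.4% (Chd5) to 96.7% (Chd4) and 100% (Chd9), against medians of 90.6% and 90.8%. By counts, Chd2 (91.5%), Chd4, Chd8 (92.1%) and Chd9 thus lay above the median gene, and Chd1, Chd3, Chd5, Chd6 and Chd7 below it. TPM weighs a fragment on a short transcript more than a fragment on a long one, which is why the 2 shares part. Whether the short transcripts exist as separate RNAs, or received fragments of the full-length RNA, cannot be told apart in these tables.

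**Figure D2:**
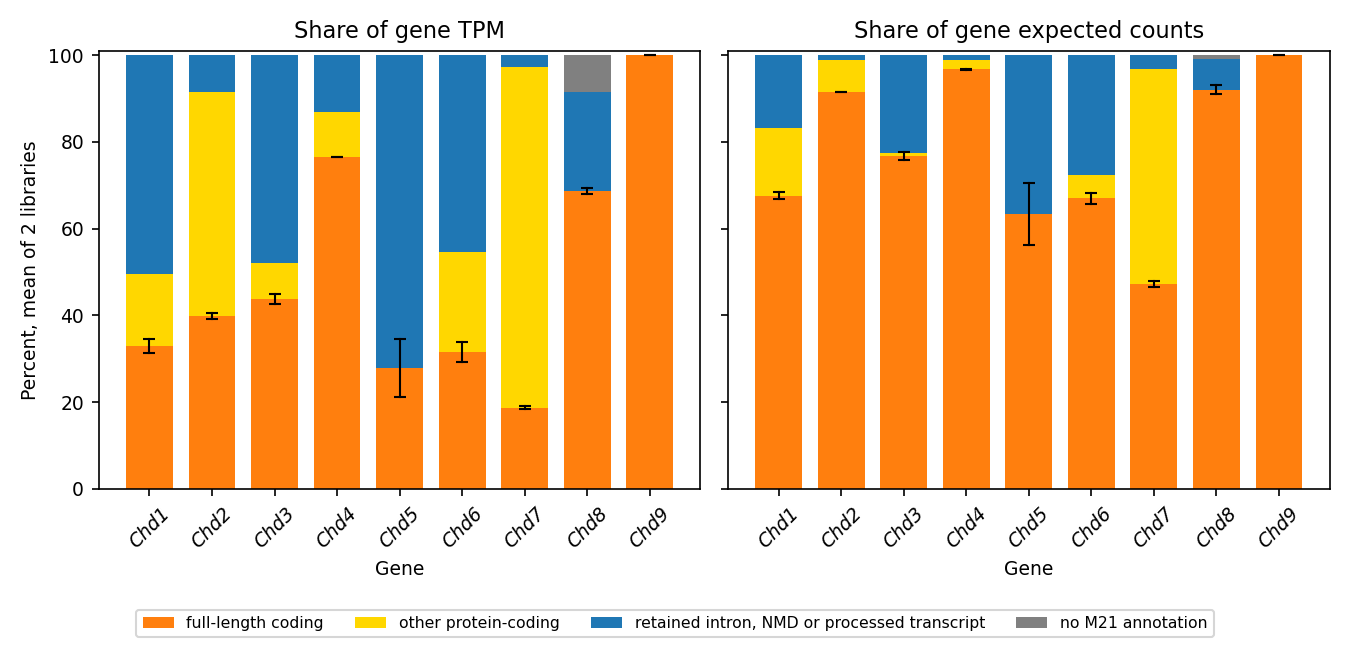
Makeup of each Chd gene by share of TPM (left) and of expected counts (right), in percent as the mean of 2 libraries, with black lines from one library's full-length share to the other's. Orange is full-length coding, yellow other protein-coding, blue retained-intron, nonsense-mediated-decay (NMD) or processed transcripts, and grey a transcript with no M21 annotation. Chd7 is mostly yellow by TPM, Chd5 mostly blue, and Chd9 wholly orange.

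In subfamily I, Chd1 binds methylated histone tails and travels with elongating RNA polymerase. The gene lies on chromosome 17 from 15704967 to 15772610 (+ strand). Its leading transcript by TPM was not the coding one. Chd1-203, a processed transcript of 1372 nt with no coding sequence, held 46.9% and 52.4% of the TPM but 15.1% and 18.1% of the counts. It shares bases 52 to 1401 with the full-length Chd1-201 (7916 nt, 36 exons, 34.5% and 31.4% of the TPM), so it ends before the DEAH box. Chd1-204, a shorter coding transcript with 14.4% and 11.7%, extends past the box. Transcripts that contain the box made up 46.0% of Chd1 TPM and 81.6% of its counts.

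Chd2, the closest relative of Chd1 and a gene of childhood epilepsy in humans, lies on chromosome 7 from 73426638 to 73541830 (- strand). Chd2-203, its only full-length transcript, held 40.6% and 39.2% of the TPM yet 91.6% and 91.4% of the counts. The rest of the TPM was mostly in Chd2-201, with 36.5% and 30.4% of the TPM from 119 and 89.3 counts, and Chd2-204, with 17.9% and 18.6% from 35.5 and 33.6 counts. These are 751 and 499 nt long in the authors' annotation and 1571 and 748 nt long in M21. Neither reaches the box, and 39.9% of Chd2 TPM lay in a transcript that contains it. In the M21 models Chd2 also shares 2628 nt of exon with the same-strand gene 1810026B05Rik, which was at 47.5 and 43.4 TPM. That overlap is counted up to the M21 gene end at 73541830, whereas the quantified Chd2 transcripts end by 73541746. How many bases those transcripts share with 1810026B05Rik was not measured, and the division of fragments between both genes is uncertain. By whole-gene TPM Chd1 exceeded Chd2 by 0.42 ± 0.10 log2 units, and by full-length TPM by 0.14 ± 0.04.

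Subfamily II held 45.7% of the summed Chd TPM and 58.7% of the full-length sum, the largest part by both, followed by subfamily III (39.4% and 30.2%) and subfamily I (14.9% and 11.0%). Within it, Chd4 made up 56.8% of the TPM, Chd3 41.3% and Chd5 1.91%. Over full-length transcripts the shares were 70.0%, 29.2% and 0.840%.

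Chd4, the main NuRD ATPase in most dividing cells, lies on chromosome 6 from 125095981 to 125130591 (+ strand). It was carried by a pair of nearly equal full-length transcripts. Chd4-203 held 36.5% of the TPM in replicate 1 and 33.9% in replicate 2, and Chd4-202 held 32.6% and 34.9%, so the leading transcript differed between the pools. The coding sequences, of 5706 nt in Chd4-203 and 5766 nt in Chd4-202, differ by 2 short inserts, each part of an exon. They are shown because they are the coding bases by which both main Chd4 messages differ. Capitals are present in Chd4-202 and absent from Chd4-203, and lower case gives 15 flanking bases of the spliced transcript on each side.
Chd4-202 exon 4 of 39, 21 nt (chr6:125100778-125100798, + strand): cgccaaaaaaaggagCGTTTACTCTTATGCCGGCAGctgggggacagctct
Chd4-202 exon 9 of 39, 39 nt (chr6:125102432-125102470, + strand): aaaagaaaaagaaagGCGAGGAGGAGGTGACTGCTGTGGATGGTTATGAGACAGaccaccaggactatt

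Chd4 was 1 of 8 members at 5 TPM or more, and the only one of them whose leading transcript changed. The other 7 of 8 kept it, beside 7760 of 8395 genes (92.4%) with several transcripts at that level. Full-length transcripts took 76.5% of Chd4 TPM in both libraries and 96.7% of the counts.

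Chd3, the alternative NuRD ATPase that rises in differentiating neurons, lies on chromosome 11 from 69343273 to 69369406 (- strand). Chd3-202, full-length with 40 exons, held 35.4% and 34.3% of the TPM. A retained-intron transcript, Chd3-203 (2153 nt), held nearly as much at 33.8% in each library, and Chd3-205, also of the retained-intron type, held 10.7% and 7.41%. Both cover the 3′ end only, Chd3-203 from base 5198 of 7261 onwards and Chd3-205 from base 5765, and neither includes the DEAH box. A second full-length form, Chd3-201, with 7.33% and 10.7%, lacks 1 whole coding exon. That exon is shown as the coding difference between both full-length Chd3 messages, in capitals with 15 flanking bases of the spliced transcript.
Chd3-202 exon 33 of 40, 102 nt (chr11:69348710-69348811, - strand): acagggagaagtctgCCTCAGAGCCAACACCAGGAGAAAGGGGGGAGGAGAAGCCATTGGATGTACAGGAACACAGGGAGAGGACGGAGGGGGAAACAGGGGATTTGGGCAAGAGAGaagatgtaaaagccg

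By assigned counts Chd3-202, with this exon, outweighed Chd3-201, without it, at 64.8% and 61.7% against 11.2% and 16.1% of Chd3 counts. Chd3-201 is also shorter at its ends, covering bases 16 to 6183 of 7261. Inclusion of the exon itself was not measured. Chd4 lay above Chd3 by 0.46 ± 0.06 log2 units in whole-gene TPM and by 1.26 ± 0.11 in full-length TPM.

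Chd5, known from mature neurons and testis and as a tumour suppressor, lies on chromosome 4 from 152338651 to 152390194 (+ strand). It rested on 256 and 264 counts, with exact Poisson 95% intervals of 226 to 289 and 233 to 298 that cover counting error only. A processed transcript of 280 nt, Chd5-204, carried 55.4% and 44.8% of its TPM from 7.31 and 4.69 counts, that is 2.13 and 1.48 TPM. Chd5-203, a non-coding transcript that starts past the DEAH box, held 23.4% and 20.6%. The full-length Chd5-202 held 16.8% and 28.1% of the TPM from 115 and 152 counts. The level of Chd5 above that of full-length messages therefore rests on fewer than 10 fragments per library for its largest component, and all its transcript shares are imprecise.

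In subfamily III, Chd7, which acts in neural crest, inner ear and cerebellar granule cell progenitors, lies on chromosome 4 from 8690406 to 8867659 (+ strand). Its signal was dominated by an annotated short coding transcript, Chd7-203, of 2381 nt and 3 exons. It held 58.8% and 60.8% of the TPM, that is 49.5 and 47.0 TPM, from 2142 and 1877 counts. It covers bases 71 to 2145 of the 10216 nt of Chd7-202, the 5′ part of the message upstream of the DEAH box at base 3534. Chd7-206, with 3462 nt and 5 exons, joins 5′ bases from position 185 to 3′ bases up to position 9781, skips the box, and held 19.2% and 17.7%. Full-length Chd7-202 held about as much TPM as Chd7-206, at 18.3% and 19.0%, and was first by counts, at 46.4% and 47.8%. Of Chd7 TPM, 18.7% lay in transcripts that contain the box, the lowest of the 9 members, and of its counts 47.2%.

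Chd8, which represses beta-catenin targets and regulates many neurodevelopmental genes, lies on chromosome 14 from 52198151 to 52257780 (- strand). A single full-length transcript, Chd8-201 (8190 nt, 37 exons), held 68.1% and 69.3% of the TPM and 91.1% and 93.0% of the counts. The only other transcript that reached 10%, ENSMUST00000140603.1, has no M21 annotation and held 6.60% and 10.5% from 24.1 and 35.6 counts. An antisense gene, Gm26590, shares 953 nt of exon with Chd8 and was at 0.80 and 0.51 TPM. Retained-intron and other non-coding types made up 25.3% and 20.2% of Chd8 TPM.

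Chd6 lies on chromosome 2 from 160946978 to 161109075 (- strand). Its leading entry by TPM was a retained-intron transcript, Chd6-207 (3092 nt), with 35.6% and 33.2%, ahead of full-length Chd6-201 with 33.9% and 29.4%. Chd6-207 covers bases 1 to 2718 of the full-length transcript and so contains the DEAH box, but it is annotated without a coding sequence. A 675 nt coding transcript, Chd6-203, held 15.5% and 20.9% from 57.7 and 81.8 counts. Box-containing transcripts reached 70.7% of Chd6 TPM, against 31.6% for full-length coding ones.

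Chd9, first described in bone-forming progenitors, lies on chromosome 8 from 90828352 to 91054516 (+ strand) and is the member of the largest genomic span, at 226 kb. Only 2 transcripts were annotated, both full-length, so whole-gene and full-length levels were the same within rounding. Their balance differed between the pools, with Chd9-201 at 80.1% and 58.5% and Chd9-202 at 19.9% and 41.5%. The counts assigned to Chd9-202 were 439 in replicate 1 and 808 in replicate 2, in a gene whose total went from 2199 to 1943. The coding difference between both forms is an extension of exon 34, shown here because the assignment rests on it, the transcripts being 11517 and 11565 nt long in the deposited tables. Capitals are in Chd9-202 only.
Chd9-202 exon 34 of 40, 48 nt (chr8:91036551-91036598, + strand): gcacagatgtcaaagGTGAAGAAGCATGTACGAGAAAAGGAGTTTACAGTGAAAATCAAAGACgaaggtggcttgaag

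For comparison, the median difference in a leading transcript's share between the libraries was 2.82 percentage points over the 7760 genes with the same leader. Differences in transcript shares between the libraries were not tested. Chd7 over Chd9 was 3.02 ± 0.04 log2 units by whole-gene TPM and 0.60 ± 0.00083 by full-length TPM.

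Between the pools, Chd genes differed little. The summed Chd TPM was 409 and 408. Each gene's counts, scaled by TMM (trimmed mean of M-values), were set against each other in an exact binomial test, two-sided, with Benjamini-Hochberg adjustment over 19209 genes. This test allows for counting error only, and compares these libraries, not conditions. It called 1 of 9 members, beside 20.4% of all genes tested, 10.7% higher and 9.68% lower in replicate 2 (2062 and 1859 genes, or 1770 and 2151 with spike-ins in the totals). The member was Chd7, lower in replicate 2 at 5437 against 6356 counts (log2 ratio -0.12, exact binomial adjusted p = 5.52e-05). The edgeR exact test with a common dispersion adds the spread over all genes (a coefficient of variation of 9.02%). That spread was estimated from these same 2 libraries, so a difference of the usual size between them cannot be called. The edgeR test called 0 of 9, beside 1.57% of all genes (0.942% higher and 0.625% lower). For Chd7 its adjusted p was 1. With no adjustment, 3 members had p below 0.05 by the binomial test and 0 by edgeR. The share of all genes at that unadjusted limit was not counted. By the binomial test it is at least the 20.4% called after adjustment. Log2 count ratios of the 9 ran from -0.12 to 0.15, and their median size was 0.06, against 0.13 over all genes tested. The latter include genes with as few as 10 counts over both libraries, where counting error is larger. Members other than Chd5 had 1727 or more counts in each library, and genes of like depth were not compared.

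TPM and counts did not always point the same way. Chd5 TPM was lower in replicate 2 (3.30 against 3.84) while its scaled counts were higher by 0.15 log2 units, a count difference that was not called (exact binomial adjusted p = 0.484). The deposited effective length of Chd5, an average over its transcripts weighted by their abundance, went from 3513 to 4570 nt. Chd6 TPM was higher in replicate 2 (38.7 against 34.0) with a count ratio of 0.02, and its effective length went from 5170 to 4654 nt. Chd1 TPM was higher (36.1 against 33.4) with a count ratio of 0.00, and its effective length went from 3944 to 3683 nt. In these 3 genes the TPM difference between pools thus came with a shift of the assigned transcripts and not with a called count difference.

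**Figure D3:**
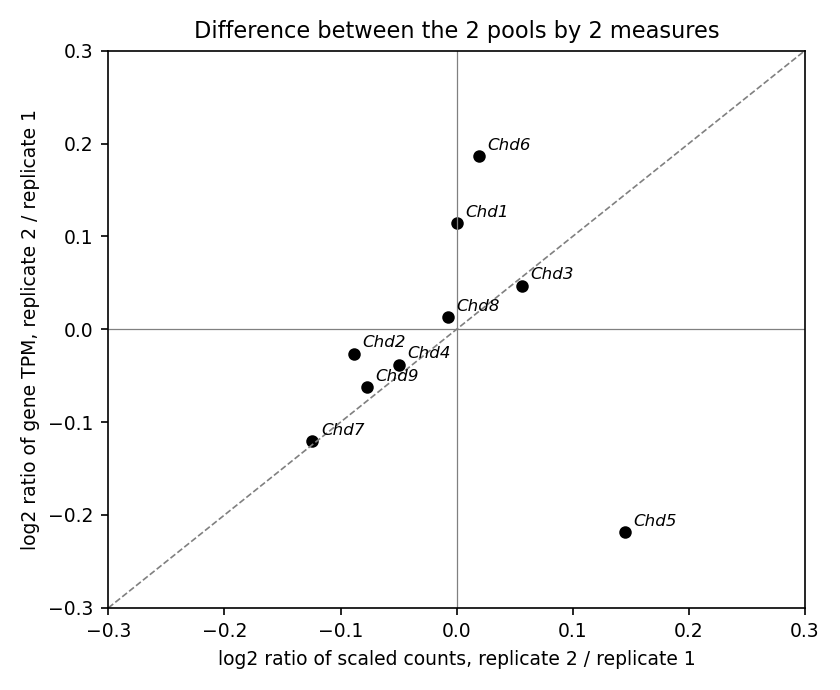
Log2 ratio of replicate 2 over replicate 1 for the 9 Chd genes by scaled counts (horizontal) and by gene TPM (vertical), with 1 point per gene and a dashed line where both are equal. Chd5 is higher by counts and lower by TPM, and Chd1 and Chd6 lie above the line at count ratios near 0.

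Markers of other cell types differed between the pools as well. Over all genes tested, the binomial test called 10.7% higher and 9.68% lower in replicate 2, and edgeR 0.942% and 0.625%. Those shares include genes with few counts. Genes as deep as the markers were not compared, and at high counts the binomial test calls small differences. By the binomial test all 10 skeletal muscle markers were higher in replicate 2 (summed 65.2 and 315 TPM), as by edgeR, and all 5 mesenchyme markers were higher (summed 1330 and 1734 TPM), with 0 by edgeR. All 5 otic and epithelial markers were lower (summed 331.5 and 156 TPM), 3 of them also by edgeR, and 6 of 7 erythroid markers were lower, with 0 by edgeR. The neuron marker median was 391 and 395 TPM, with 4 of 8 markers higher and 2 lower by the binomial test. The neural progenitor median was 160.2 and 159 TPM, with 0 of 7 higher and 3 lower. The proliferation marker median was 162 and 157 TPM, with 0 of 5 higher and 3 lower (Cdk1, Top2a and Ccnb1, named after their values were seen). The part of any of these in the Chd7 difference was not tested.

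In each of 4 lists of partner genes the median level lay above the Chd median of 34.7 TPM. The lists were chosen with earlier results of these data known and are descriptions. All 12 NuRD subunits were detected, with a median of 131 ± 3.50 TPM. The highest were the histone chaperone Rbbp4 (376 TPM), the deacetylase Hdac2 (366 TPM) and the methyl-CpG-binding family member Mbd3 (232 TPM), and the lowest was Mbd2 (6.08 TPM). By the binomial test 1 subunit was higher in replicate 2 (Rbbp4) and 2 were lower (Mbd3, and Hdac1 at 141 TPM, which is named for its call after its values were seen). Of all genes tested 10.7% were called higher and 9.68% lower, so calls in a list of 12 are not read as a trait of the subunits. The Rbbp4 call rests on 12741.28 expected counts listed in both libraries, and its TPM was lower in replicate 2 (375 against 377). The 5 ChAHP partners, which join Chd4 with the DNA-binding factor Adnp and HP1 proteins, had a median of 110.3 ± 0.601 TPM. Of these, 0 were called by either test, beside 20.4% of all genes by the binomial test and 1.57% by edgeR. Unadjusted p was below 0.05 for 2 by the binomial test and 0 by edgeR, and the share of all genes at that limit was not counted. In this list the HP1 genes Cbx3 (455 TPM), Cbx5 (150 TPM) and Cbx1 (110.3 TPM) were high and Adnp (15.7 TPM) was the lowest.

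All 9 elongation and histone chaperone partners of Chd1 were detected, at a median of 62.9 ± 0.665 TPM. The FACT subunit Ssrp1 (193 TPM), the elongation factor Supt5 (86.8 TPM) and the PAF complex member Ctr9 (83.1 TPM) led, and Cdc73 (20.2 TPM) was lowest. Of the 11 partners of Chd7 and Chd8, 10 were detected, at a median of 76.8 ± 3.56 TPM over the 11. The highest were beta-catenin (Ctnnb1, 459 TPM), the topoisomerase Top2b (155 TPM) and the PBAF subunit Pbrm1 (155 TPM), and Fam124b was not detected, at 0.625 TPM. In each of these 2 lists 1 gene was higher and 1 lower in replicate 2 by the binomial test, beside 10.7% and 9.68% of all genes tested. The called genes were Supt6 and Supt16 in the first list, and Top2b and Arid2 in the second. Of these Supt6, Supt16 and Arid2 are named after their values were seen.

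The 7 genes linked to Chd7 in mouse neural tissue were all detected, with a median of 21.1 ± 3.95 TPM. The neuronal differentiation factors Sox11 (480 TPM) and Sox4 (221 TPM) were the highest, followed by Gbx2 (44.9 TPM), a factor of the midbrain-hindbrain boundary. The boundary signal Fgf8 was the lowest, at 2.56 and 2.38 TPM. By the binomial test 5 of 7 were higher in replicate 2 (Sox11, Sox4, Gbx2, and Otx2 and Sema3a, named after their values were seen), beside 10.7% of all genes, and 0 of 7 by edgeR. Of the 7 hindbrain markers 6 were higher as well by the binomial test, and 1 by edgeR. Sox11 was called at a log2 ratio of only 0.03. The share over all genes includes genes with few counts, and genes of like depth were not compared.

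Among 31 SNF2-type ATPases (the 9 Chd genes and 22 others), Chd4 was number 4 by whole-gene TPM, behind Atrx (201 TPM), the BAF ATPase Smarca4 (144 TPM) and the ISWI ATPase Smarca5 (120 TPM). Chd7 was number 6, Chd3 number 7, Chd9 number 25 and Chd5 number 30, ahead of only Ino80 (3.30 TPM). By full-length TPM, Chd4 was number 2 behind Smarca4 (81.2 against 141 TPM), Chd3 number 5, Chd8 number 9 and Chd7 number 12, and Chd5 was last. The median over the members was 34.7 TPM against 24.0 TPM in the 22 others, but 11.4 against 11.6 TPM over full-length transcripts. The median full-length share of TPM was 39.9% in the 9 and 81.2% in the 22. These sets were not limited to genes with several annotated transcripts. Smarcad1, Btaf1, Chd1l, Ercc6 and Ercc6l, named after their values were seen, were at 100%, as was Chd9. By the binomial test 5 of the 22 others were higher in replicate 2 and 0 lower, against 10.7% and 9.68% of all genes. These 5 were Smarca5 and, named after their values were seen, Smarca1, Smarca2, Smarcal1 and Srcap. Here too genes of like depth were not compared. Over all 6 partner and comparison lists edgeR called 0 of 66 genes, beside 1.57% of all genes tested. At an unadjusted p below 0.05 by edgeR there were 2 (Gbx2 and Sema3a), and the share of all genes at that limit was not counted.

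**Figure D4:**
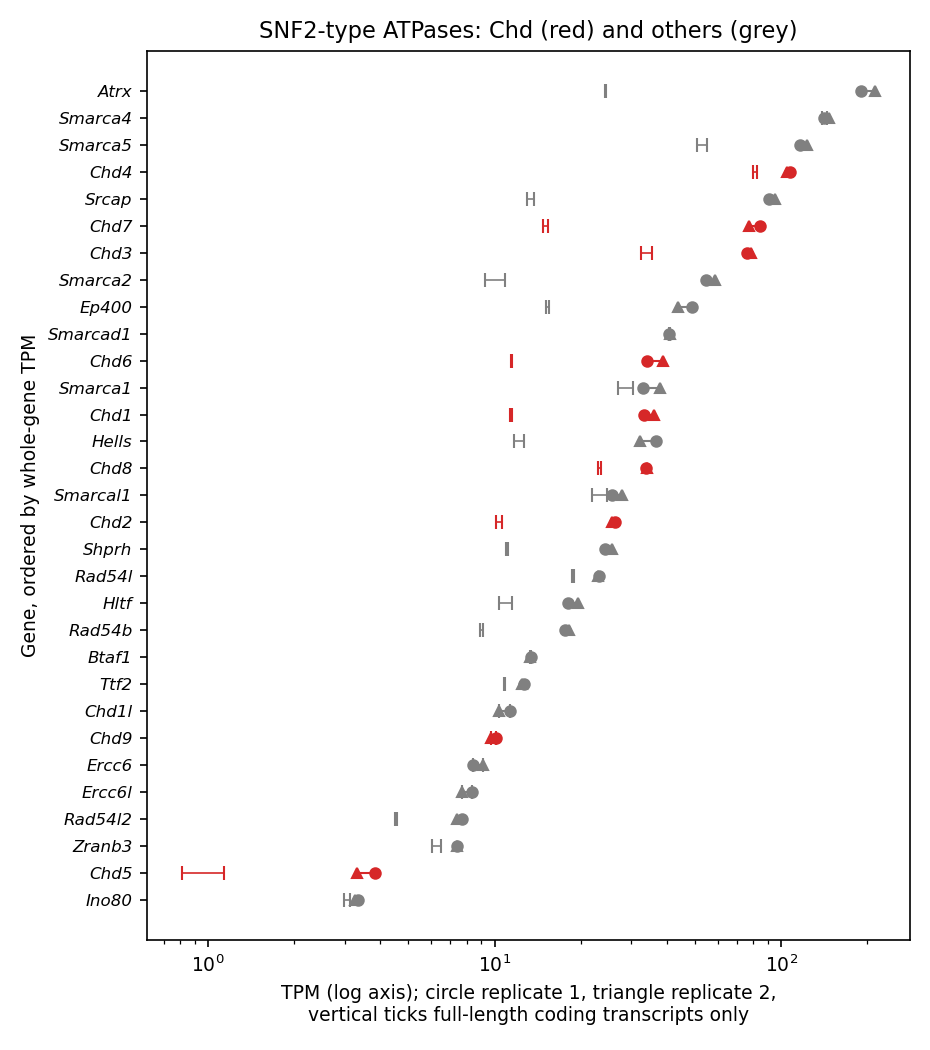
Levels of 31 SNF2-type ATPases in TPM on a log axis, ordered by whole-gene TPM, with the 9 Chd genes in red and 22 others in grey. Circles are replicate 1, triangles replicate 2, and vertical ticks the full-length coding transcripts in each library. Chd4 stays near the top by both, and Chd5 has the lowest full-length level.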

How the data were processed

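The long size fraction of RNA of 2 hindbrain pools was measured, with 1 gene table and 1 transcript table per library. Per the labels and the accompanying notes, the authors aligned to the transcriptome of mm10 with GENCODE M4. For the aligner, the quantifier and the use of strand, nothing is stated in the labels or headers. Per the file headers, the authors' tables hold expected counts, which are estimated fragment numbers. The deposited TPM and FPKM values are length-normalised levels, per the file headers, and the transcript tables give each transcript's share of its gene as a percent, per the file headers. Gene rows equal the sums of their transcript rows within 0.01 for the members.

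Names, types, exons and coding sequences were taken from GENCODE M21 (mm10). Of 43346 Ensembl genes, 42462 matched by identifier and 884 did not. Unnamed entries held 0.000107% and 0.000114% of counts and stayed out of totals and tests.

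Expected counts were rounded, genes with 10 or more counts over both libraries were scaled by TMM (edgeR 4.0.16, R 4.3.3), and an exact binomial test with Benjamini-Hochberg adjustment was applied at a threshold of 0.05. Alternatives were edgeR's exact test with a common dispersion, DESeq2 1.42.0 size factors, library totals, no count filter, spike-ins in the totals, posterior mean TPM, FPKM, rescaled TPM, log2(TPM + 1), and each replicate left out. Levels and shares by full-length transcripts, by counts, and counts per kb were chosen after seeing the data. Tests were checked on simulated data, and the pass conditions covered counting error only. The spread between these libraries (a coefficient of variation of 9.02%) was not covered by those conditions. Tables were handled with pandas 2.3.3 in Python 3.11.15.

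Members and lists were chosen with earlier results of these data known. Named were all 9 members, the 3 highest and the lowest gene of each list, genes called by both tests, genes overlapping a member's exons, and transcripts at 10% or more. Overlapping genes at 0 TPM (Mir7045 in Chd4, Gm13645 in Chd5) and Gm44686 and Gm45641, not analysed here, add no value. Depth limits Chd5 most.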

Additional observations from a re-analysis of the deposited data

How the results depend on the processing

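No paired analysis was possible because the study holds 1 group and no groups were compared. Leaving out replicate 1 or replicate 2 turned Chd7 over Chd3 (-0.019 and 0.15 log2 units) and Chd1 over Chd8 (0.084 and -0.017), and no other log2 difference between neighbours in whole-gene TPM. Single libraries also changed the order of Chd4-203 and Chd4-202, of Chd7-206 and Chd7-202, of Chd5-203 and Chd5-202, and of Chd3-205 and Chd3-201 by share of TPM. Rescaling TPM to nuclear Ensembl genes raised all members in step, to 39.5 for Chd1, 29.5 for Chd2, 87.7 for Chd3, 120.5 for Chd4, 4.05 for Chd5, 41.3 for Chd6, 91.7 for Chd7, 38.5 for Chd8 and 11.3 for Chd9. Posterior mean TPM put Chd4 at 104.

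Full-length transcripts gave 11.4 TPM for Chd1, 10.4 for Chd2, 33.9 for Chd3, 81.2 for Chd4, 0.975 for Chd5, 11.4 for Chd6, 15.1 for Chd7 and 23.3 for Chd8. The log2 differences were then 2.43 for Chd4 over Chd7, -1.17 for Chd7 over Chd3, 1.56 for Chd3 over Chd6, 0.0013 for Chd6 over Chd1, -1.03 for Chd1 over Chd8, 1.17 for Chd8 over Chd2, 0.063 for Chd2 over Chd9 and 3.37 for Chd9 over Chd5. By counts per kb they were 1.39 for Chd4 over Chd7, -0.42 for Chd7 over Chd3, 1.32 for Chd3 over Chd6, -0.58 for Chd1 over Chd8, 1.16 for Chd8 over Chd2, 0.19 for Chd2 over Chd9 and 2.71 for Chd9 over Chd5. These alternatives leave out the short transcripts or their lengths by construction. With log2(TPM + 1), Chd2 over Chd9 was 1.31 and Chd9 over Chd5 1.26, and with posterior mean TPM 1.44 and 1.36. By share of expected counts instead of TPM, the leading transcripts held 16.6% (Chd1-203), 91.5% (Chd2-203), 63.2% (Chd3-202), 44.8% (Chd4-203), 2.32% (Chd5-204), 20.98% (Chd6-207), 34.1% (Chd7-203) and 92.1% (Chd8-201). Among protein-coding transcripts only, Chd2-203 held 43.6%, Chd3-202 67.1%, Chd4-203 40.6%, Chd7-203 61.5% and Chd8-201 100%. By posterior mean TPM, Chd2-203 held 38.5%, Chd4-203 33.3% and Chd8-201 65.9%.

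The members' median lay above 88.3% of all Ensembl genes and 63.9% of detected protein-coding genes, with single members from 70.6% (Chd5) to 96.3% (Chd4) and from 12.8% to 88.9%. The edgeR exact test called 301 genes, 181 higher and 120 lower in replicate 2, against 3921, 2062 and 1859 by the binomial test. Its dispersion came from the same 2 libraries that it compared, and it did not call Chd7 (log2 ratio -0.12). With spike-ins in the totals 1770 genes were higher and 2151 lower, and Chd4 was called lower (-0.06, exact binomial adjusted p = 0.0132). The Chd1 log2 ratio of about 0.00 changed sign with DESeq2 size factors (0.0019), library totals (0.00085) and no filter (0.00085). Chd5, with 256 and 264 counts, is limited most by depth.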

Other observations

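The gap between whole-gene and full-length levels was not limited to Chd genes. Atrx, the X-linked remodeller of heterochromatin, was the highest of 31 SNF2-type ATPases by whole-gene TPM at 190.1 and 213, but full-length transcripts held 12.8% and 11.5% of it, or 24.4 TPM in each library, which placed it number 7. Srcap, the ATPase that deposits a histone H2A variant, had 14.3% and 14.4% of its 90.8 and 95.5 TPM in full-length transcripts. Smarca2, the BAF ATPase alternative to Smarca4, had 17.0% and 18.5%. Its relative Smarca4 had 97.9% and 98.5%, which made it the highest of the 31 by full-length TPM at 141. These genes were chosen after their values were seen.

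The NuRD subunit Rbbp4 was listed at 12741.28 expected counts in both libraries, identical to the second decimal, while its TPM differed slightly (377 and 375). The call of Rbbp4 as higher in replicate 2 rests on that value and the smaller total of replicate 2.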
